A study of Mus musculus with 6 samples.

Results

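The kinesin genes of cultured mouse NSP cells were followed after lentiviral delivery of a short hairpin RNA (shRNA) against REST. Members were all genes whose symbol is Kif followed by a digit, read by probe sets annotated to exactly 1 gene, and a gene with several was read by its brightest over the 6 arrays. This gave 37 kinesin genes among 18194 genes measured. By their known roles 15 were grouped as transport kinesins, 12 as mitotic kinesins, 5 as kinesins of cilia and centrioles, and 5 as other Kif genes. Expression had been measured on 6 arrays, from cells of E12.5 mouse brains that were dissociated, grown to confluence on coated dishes, split and infected overnight. The control group held 3 arrays of cells that received a control (CTL) shRNA lentivirus, and the other group 3 arrays of cells that received a REST shRNA lentivirus. RNA was extracted from all cultures 6 days after the virus was removed. Arrays are numbered 1 to 3 in each group, and the labels say neither what a number stands for nor whether samples came from separate cultures, so the p-values cover no more than the scatter among these arrays, part of which may be technical. Neither strain nor hairpin sequence is given in the labels, and the cultures are mixed dissociated brain cells, not a sorted cell type.

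Kinesins are motor proteins that hydrolyse ATP to move along microtubules or to take microtubule ends apart. In neurons, members of the kinesin-1, kinesin-2 and kinesin-3 families carry vesicles, mitochondria and other cargo down axons and dendrites, while in dividing cells another set of kinesins builds the spindle, moves chromosomes and cuts the cell apart at the end of mitosis. The transcription factor REST represses many neuronal genes outside neurons, through a DNA element called RE1.

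The promoters of the mitotic kinesins share short letters that those of the transport kinesins mostly lack. Windows of both classes are shown because the 2 classes also differed in how far their readings varied between arrays. The contrast of their shRNA differences had no settled sign. RefSeq promoter windows, from 250 bases before to 50 bases after the start of transcription on build GRCm38.p6, were matched by symbol for 31 of the 37 genes. The array table itself names no build. The windows were searched on both strands for TTTGAA and TTCGAA, the letters of the cell cycle homology region, for CCAAT, and for TTCAGCACC and GGACAGC, the left and right parts of the RE1 element. No motif overlapped another in the stretches shown, which run from 60 bases before to 30 bases after the start, with matches in capitals (TTCAAA and ATTGG are TTTGAA and CCAAT read on the other strand).
Kif11 (chr19:37376322-37376411, plus strand): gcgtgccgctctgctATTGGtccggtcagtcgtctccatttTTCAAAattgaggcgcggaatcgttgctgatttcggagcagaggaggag
Kif15 (chr9:122951021-122951110, plus strand): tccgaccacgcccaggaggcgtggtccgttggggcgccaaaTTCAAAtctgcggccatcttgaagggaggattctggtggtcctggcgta
Kif22 (chr7:127042391-127042480, minus strand): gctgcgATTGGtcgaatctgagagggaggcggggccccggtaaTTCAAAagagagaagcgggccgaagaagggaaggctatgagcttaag
Kif23 (chr9:61946770-61946859, minus strand): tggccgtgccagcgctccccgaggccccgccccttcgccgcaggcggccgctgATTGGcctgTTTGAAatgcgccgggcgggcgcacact
Kif18b (chr11:102925095-102925184, minus strand): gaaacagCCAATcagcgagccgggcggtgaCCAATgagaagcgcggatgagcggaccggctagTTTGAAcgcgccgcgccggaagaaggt
Kif4 (chrX:100626005-100626094, plus strand): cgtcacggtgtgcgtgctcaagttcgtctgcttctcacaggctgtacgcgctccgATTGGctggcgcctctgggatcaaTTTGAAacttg
Kif20b (chr19:34922298-34922387, plus strand): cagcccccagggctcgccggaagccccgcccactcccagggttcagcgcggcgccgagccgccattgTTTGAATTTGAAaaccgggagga
Kif3c (chr12:3365072-3365161, plus strand): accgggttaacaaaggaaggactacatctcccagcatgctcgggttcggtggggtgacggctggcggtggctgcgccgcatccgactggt
Kif5c (chr2:49619226-49619315, plus strand): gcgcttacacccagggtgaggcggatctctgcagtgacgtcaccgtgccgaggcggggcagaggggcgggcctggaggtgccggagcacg
TTTGAA stood in the windows of 9 of 11 mitotic kinesins (Kif2c, Kif4, Kif11, Kif14, Kif15, Kif18b, Kif20b, Kif22 and Kif23) and of 1 of 11 transport kinesins (Kif1a), against 17.9% of all 32851 promoter windows. It was also found for Kif26b and Kif27 of the other classes, and TTCGAA for Kif24 alone, against 1.56%. Within the shown stretch it was present for 7 of the 11 mitotic kinesins, 1 of 11 transport kinesins (Kif1a, at position -44 from the start) and Kif26b, against 4.62% of all windows. The stretches shown are those of the 7 mitotic kinesins with this match, beside 2 transport kinesins chosen for their expression values, which hold none. In Kif11 and Kif15 the match began 19 bases before the start, and in Kif20b it occurred 2 times side by side. CCAAT was found for 7 mitotic and 3 transport kinesins, against 37.4% of all windows. The RE1 part TTCAGCACC was found for 1 kinesin, Kif2b, and GGACAGC for Kif1c and Kif9, against 0.371% and 6.56% of all windows, and Kif3c and Kif5c held neither. These are matches of letters in a short window and were not tested as binding sites.

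As a check of the labels, Rest read 8.92, 8.75 and 8.90 on the log2 scale in control arrays 1, 2 and 3, and 8.63, 7.70 and 8.20 in REST shRNA arrays 1, 2 and 3. The groups did not overlap, and the REST shRNA mean was 62.5% of control, with the smallest difference between the arrays numbered 1. Over all 18194 genes limma called 0 genes, 0% of them, at a Benjamini-Hochberg adjusted p under 0.05 in either direction. At an unadjusted p under 0.05, 1.78% of genes were higher and 1.07% lower with REST shRNA. The median log2 difference over all genes was 0.04. Neuron markers read higher with REST shRNA, with 14 of 17 above 0 and a median difference of 0.68. Astrocyte markers read lower, with 0 of 10 above 0 and a median difference of -0.36, which was -0.08, -1.18 and 0.02 for numbers 1, 2 and 3. In addition, 6 of 7 endothelial and 7 of 9 microglia markers had means below the bacterial control probe sets, whose highest value of 3.24 served as a background reference. In these bulk samples, fewer cells of a type and less RNA per cell cannot be told apart. As a sign of RNA quality, the Gapdh 3' minus 5' signal ran from 1.72 to 1.94 on the arrays numbered 1 and 2 and was 2.87 and 2.25 on control array 3 and REST shRNA array 3. The same measure for Actb showed no such step, with 0.246 to 0.367 over all 6 arrays.

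No kinesin gene passed the adjusted threshold in either direction in limma. At an unadjusted p under 0.05, 2 of the 37 were higher with REST shRNA (Kif3c and Kif26b) and 1 was lower (Kif1b), each with an adjusted p of 1. The groups did not overlap for 3 genes that were higher (Kif2a, Kif3c and Kif26b) and 3 that were lower (Kif1b, Kif7 and Kif13b), against 4.91% and 2.65% of all genes, so 6 kinesins in all separated the groups. In a fit blocked on replicate number the same 3 genes had an unadjusted p under 0.05, where 2.24% of all genes were higher and 1.42% lower. In every replicate number 6 kinesins were higher and 4 lower, against 13.6% and 8.77% of all genes. The median difference was 0.09 over the 15 transport kinesins, 8 of them positive, and 0.05 over the 12 mitotic kinesins, 7 of them positive, where 57.2% of all genes were above 0 and 42.8% below. Against the 0.04 of all genes, neither class stood out by its median, and the transport median was below 0 in 4 of 6 fits that left out 1 array. The class medians within a number did not keep 1 sign from number to number. The transport median was 0.08, -0.23 and -0.06 for numbers 1, 2 and 3, and the mitotic median was -0.49, 0.84 and -0.07. Over all genes the median was 0.01, -0.01 and 0.11.

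**Figure D1:**
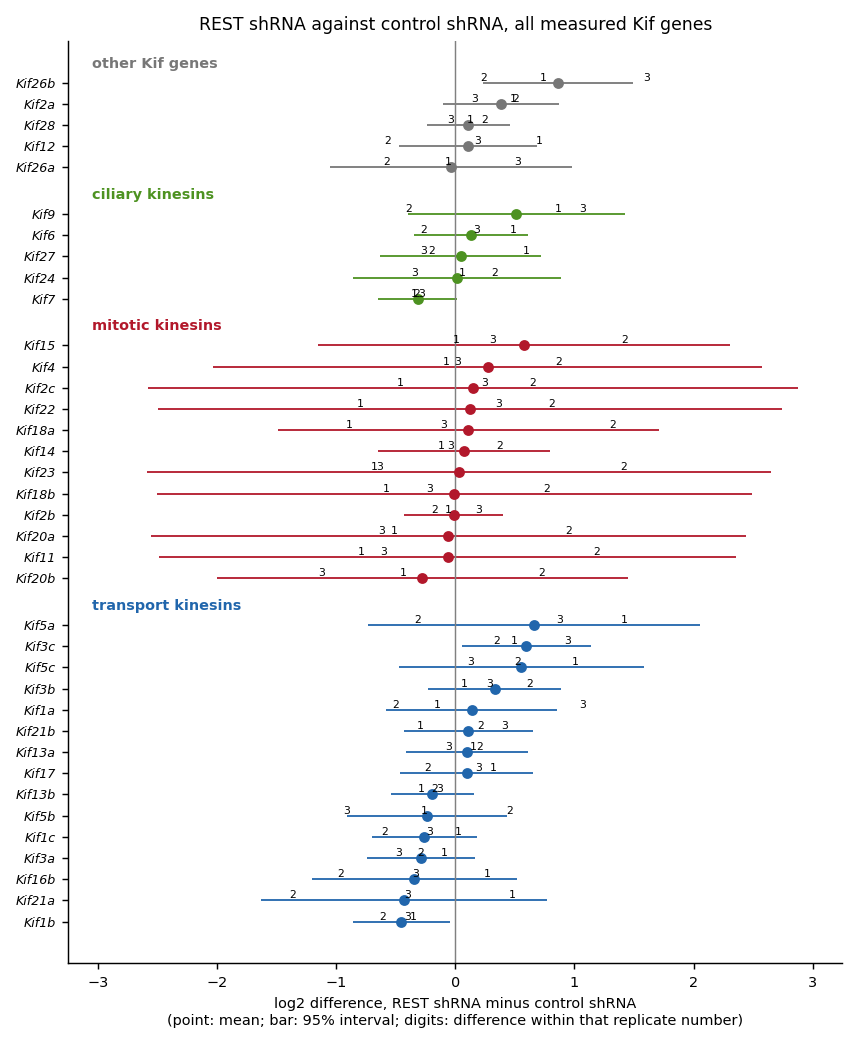
Log2 difference, REST shRNA minus control shRNA (x axis), for all 37 measured Kif genes (y axis, coloured by class). Points are means with 95% intervals from limma over 3 arrays a group, and the digits 1, 2 and 3 mark the difference within that replicate number; Kif1b, Kif3c and Kif26b have intervals that leave out 0, and most mitotic kinesins have intervals several log2 units wide.

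Among the kinesin-3 motors, which carry synaptic vesicle precursors and other vesicles, Kif1b read lower and Kif1a did not separate the groups. Kif1b read 11.82, 11.62 and 11.67 in control arrays 1, 2 and 3, and 11.47, 11.02 and 11.27 in REST shRNA arrays 1, 2 and 3. Every REST shRNA array lay below every control array, and the REST shRNA mean was 73.0% of control. The log2 difference of Kif1b was -0.45 (95% CI -0.86 to -0.05; limma, unadjusted p = 0.0332, adjusted p = 1). All 7 probe sets of Kif1b gave negative differences, from -0.79 to -0.28. Leaving out single arrays gave unadjusted limma p-values of 0.0205 to 0.110 for Kif1b, under 0.05 in 1 of 6 cases.

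Kif1a, the neuronal carrier of synaptic vesicle precursors, read 8.93, 8.84 and 8.14 in the control arrays and 8.78, 8.35 and 9.20 in the REST shRNA arrays. The groups overlapped: the REST shRNA array was lower by 0.15 and 0.50 for numbers 1 and 2 and higher by 1.07 for number 3. Its mean difference was 0.14 (95% CI -0.58 to 0.86), which leaves room for a change of either sign. A dimmer probe set of Kif1a differed by 0.01, 0.02 and 0.61 for numbers 1, 2 and 3, also with overlapping groups. The negative signs were thus those of the brightest probe set. Kif1c, a vesicle motor found in many cell types, read 9.23, 9.44 and 9.53 in control and 9.25, 8.85 and 9.31 in REST shRNA, a difference of -0.26 ± 0.18 (SE) with overlap. The 3 dimmer probe sets of Kif1c gave -0.48, 0.01 and 0.11. Kif13b, which carries signalling cargo at the cell cortex, read 8.79, 8.56 and 8.54 in control and 8.51, 8.39 and 8.41 in REST shRNA. The groups of Kif13b did not overlap, but the difference of -0.19 had a 95% CI of -0.54 to 0.15, and a dimmer probe set of the gene gave 0.10. Kif13a, an endosome motor, differed by 0.10 on its brightest probe set, which can match several transcripts, while its 4 other probe sets gave negative differences down to -0.46. Kif16b, another endosome motor, differed by -0.34 ± 0.36 (SE).

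The kinesin-2 family supplies the heterotrimeric motors that carry cargo in axons and in cilia, and its members pointed in different directions. Kif3c, the neuron-enriched subunit that pairs with Kif3a, read 8.51, 8.81 and 8.01 in the control arrays and 9.002, 9.16 and 8.95 in the REST shRNA arrays. Each REST shRNA array was above all control arrays, and the REST shRNA mean was 1.51-fold that of control. The Kif3c difference was 0.60 (95% CI 0.05 to 1.14; limma, unadjusted p = 0.0354, adjusted p = 1), at 0.49, 0.35 and 0.94 for numbers 1, 2 and 3. The second probe set of Kif3c gave 0.34, and leaving out single arrays gave unadjusted limma p-values of 0.0142 to 0.0850, under 0.05 in 1 of 6 cases. Kif3a, the shared subunit of these motors, read 9.33, 9.07 and 9.49 in control and 9.23, 8.78 and 9.02 in REST shRNA. Its difference of -0.29 ± 0.19 (SE) was negative in all 3 numbers and on all 4 probe sets, with overlapping groups. Kif3b, the other partner of Kif3a, read 6.80, 6.59 and 6.25 in control and 6.88, 7.21 and 6.54 in REST shRNA. It differed by 0.33 ± 0.23 (SE), with overlap, and 1 of its 4 probe sets gave -0.03. Kif17, a dendritic motor for glutamate receptor vesicles, lay between 3.74 and 4.49 on all arrays and differed by 0.09 ± 0.23 (SE).

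**Figure D2:**
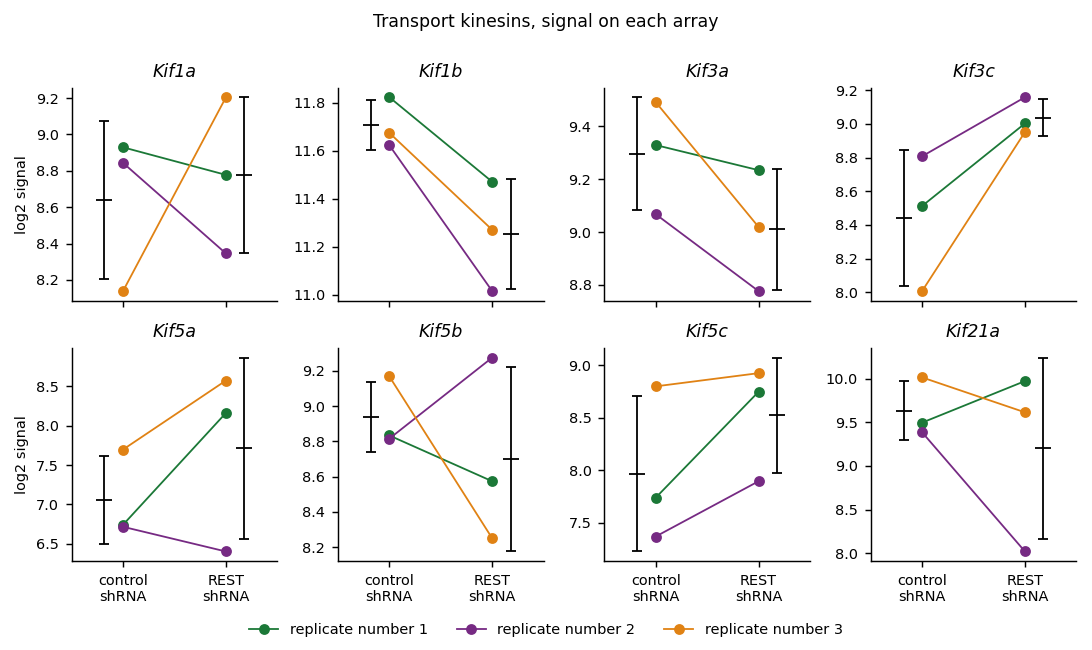
Log2 signal (y axis) of 8 transport kinesins on each of the 6 arrays, with lines joining control shRNA and REST shRNA arrays of the same replicate number and black bars giving mean ± SD (n = 3). Along all 3 lines Kif1b is lower and Kif3c and Kif5c are higher with REST shRNA, the groups of Kif5c overlap, and Kif21a reads 8.02 on REST shRNA array 2.

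Kinesin-1 heavy chains drive fast axonal transport. Kif5a and Kif5c are enriched in neurons and Kif5b is made in most cells. Kif5c read 7.74, 7.37 and 8.80 in control and 8.75, 7.90 and 8.93 in REST shRNA. Within each number the REST shRNA array was higher, by 1.01, 0.53 and 0.13, yet control array 3 lay above REST shRNA arrays 1 and 2, so the groups overlapped. The mean difference was 0.55 ± 0.43 (SE; limma, unadjusted p = 0.242, or 0.0503 in the fit blocked on replicate number). The difference ran from 0.25 without control array 2 to 0.97 without control array 3, the latter with an unadjusted limma p of 0.0361. All 4 probe sets of Kif5c gave positive differences, from 0.11, on a probe set below the background reference, to 1.07. The probe set with 1.07 read 4.74, 4.92 and 5.45 in control and 5.96, 5.57 and 6.80 in REST shRNA. On it the groups did not overlap, while on the others they did. Kif5a read 6.74, 6.72 and 7.70 in control and 8.16, 6.40 and 8.57 in REST shRNA. It was higher by 1.42 and 0.87 for numbers 1 and 3 and lower by 0.31 for number 2, a mean of 0.66 ± 0.58 (SE). Without REST shRNA array 2 its difference was 1.31, with an unadjusted limma p of 0.00787, and without REST shRNA array 3 it was 0.23. Kif5a stayed short of the adjusted threshold in every alternative run. Kif5b read between 8.82 and 9.17 in control, and 8.57, 9.27 and 8.25 in REST shRNA, a difference of -0.24 ± 0.28 (SE). The neuron-enriched chains thus read higher on average and the ubiquitous chain did not, and the 95% intervals of all 3 differences held 0.

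Kif21a and Kif21b are kinesin-4 motors of neurons that also restrain microtubule growth. Kif21a read between 9.39 and 10.01 on 5 arrays and 8.02 on REST shRNA array 2, and its mean difference was -0.43 ± 0.50 (SE). All 3 probe sets of Kif21a were lower on average with REST shRNA. The dimmest of them read 5.24, 5.44 and 5.06 in control and 4.87, 4.34 and 4.63 in REST shRNA. On it the groups did not overlap, while on the brighter ones they did. Kif21b lay between 8.91 and 9.02 in control and read 8.62, 9.17 and 9.44 in REST shRNA, a difference of 0.11 ± 0.23 (SE).

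The mitotic kinesins varied far more between arrays of the same group than between the groups. In the control arrays their median SD was 1.27 log2 units, against 0.28 for transport kinesins and 0.19 for all genes. Kif11, the motor that pushes spindle poles apart, read 7.19, 7.06 and 5.03 in control arrays 1, 2 and 3, and 6.41, 8.24 and 4.43 in REST shRNA arrays 1, 2 and 3. Both arrays numbered 3 were low and REST shRNA array 2 was the highest of all. The group means of Kif11 differed by -0.07, with a 95% CI of -2.49 to 2.36 in the fit on group alone. Its SE was 1.02 there and 0.406 in the fit blocked on replicate number (limma, unadjusted p = 0.877). Over the 9 mitotic kinesins above background the SE ran from 0.724 to 1.14 on group alone and from 0.243 for Kif4 to 0.440 for Kif23 with the block, and none had an unadjusted p under 0.05 in either fit. Kif15, which backs up Kif11 on the spindle, read 5.40, 5.49 and 3.93 in control and 5.40, 6.90 and 4.24 in REST shRNA. It differed by 0.58 ± 0.72 (SE), the largest mean difference of the class.

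Among motors that act on chromosomes and microtubule ends, all but Kif2b were lowest on the 2 arrays numbered 3 and highest on REST shRNA array 2. Kif4, a chromosome arm motor that also organises the midzone, read 5.70, 6.11 and 3.62 in control and 5.62, 6.97 and 3.64 in REST shRNA. Kif2c, which takes microtubules apart at centromeres, read 8.16, 8.52 and 5.28 in control and 7.70, 9.17 and 5.53 in REST shRNA. For both genes the control and REST shRNA arrays numbered 3 lay together, more than 1 log2 unit below every other array. Kif22, another chromosome motor, ranged from 5.795 to 9.57 and differed by 0.12 ± 1.10 (SE), and Kif18b, which shortens astral microtubules, ranged from 4.63 to 8.28 and differed by -0.01 ± 1.05 (SE). Kif18a, a regulator of kinetochore microtubule length, was read by a dim probe set at 2.87, 2.71 and 1.66 in control and 1.98, 4.03 and 1.56 in REST shRNA, above the background reference on 1 array alone. Kif2b, a relative of Kif2c, stayed below that reference on all arrays.

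The kinesins of cytokinesis were lowest on the 2 arrays numbered 3 as well. Kif20a, which carries proteins to the spindle midzone, ranged from 6.18 to 9.94 and differed by -0.06 ± 1.05 (SE). Kif23, the motor subunit of centralspindlin, ranged from 4.44 to 8.51 and differed by 0.03 ± 1.10 (SE). Kif20b, a midbody motor, read 5.31, 5.95 and 4.83 in control and 4.86, 6.68 and 3.71 in REST shRNA, a difference of -0.28 ± 0.72 (SE). Kif14, which acts late in cytokinesis, read 2.58, 2.72 and 2.11 in control and 2.46, 3.10 and 2.06 in REST shRNA, below the background reference on every array.

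**Figure D3:**
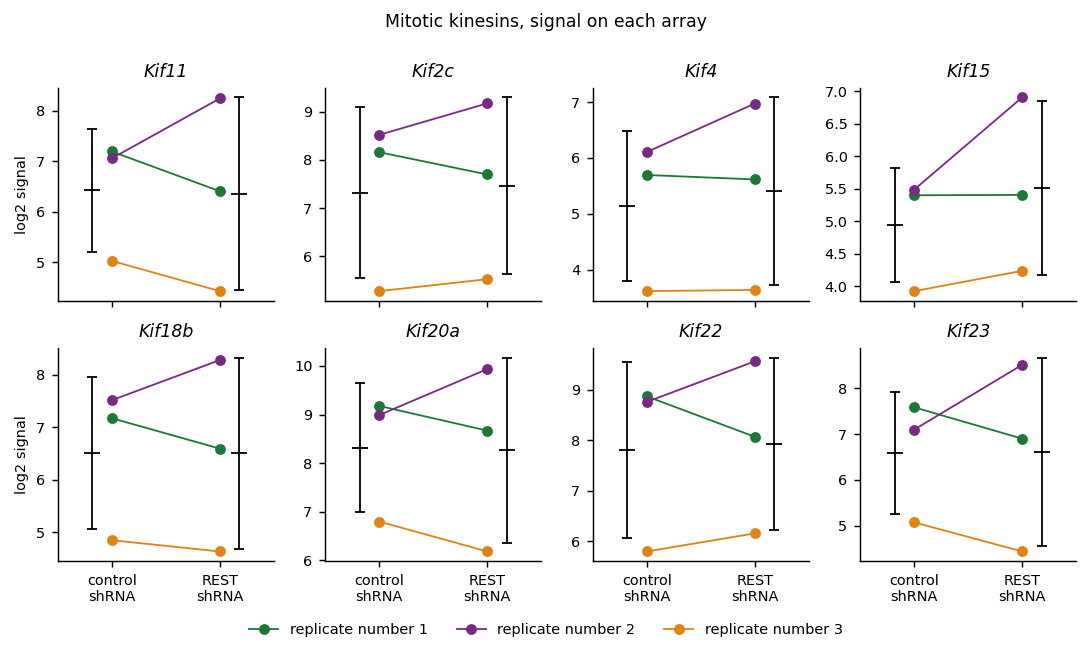
Log2 signal (y axis) of 8 mitotic kinesins on each of the 6 arrays, with lines joining arrays of the same replicate number and black bars giving mean ± SD (n = 3). In every panel the 2 arrays numbered 3 are the lowest and REST shRNA array 2 is the highest, and the lines of numbers 1 and 2 lead to different sides of their control, or, for Kif15, number 1 stays level.

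Of the 12 mitotic kinesins, 9 had a mean above the background reference. In all 9 the arrays numbered 3 were the 2 lowest and REST shRNA array 2 the highest. The difference between arrays numbered 3 and arrays numbered 1 and 2 was examined after these values were seen, in a limma fit that kept the shRNA as a term. Across the 9 genes it ran from -2.98 for Kif2c to -1.43 for Kif20b, that is 7.88-fold to 2.69-fold lower. It held separately in each group: 11 of 12 mitotic kinesins were lower in control array 3 than in the mean of control arrays 1 and 2, with a median of -2.18, and the same number in REST shRNA array 3, with a median of -2.66. The exception in both groups was Kif2b, below background throughout. All 18 probe sets of mitotic kinesins above background were lower on the arrays numbered 3, with differences from -3.65 to -1.23, whichever probe set was read. In limma the smallest adjusted p of a kinesin for this difference was 0.0953, for Kif2c, and 0 of the 37 passed the threshold, where 0.0165% of all genes were called lower and 0.0989% higher.

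Within a number, the sign of the REST shRNA difference in mitotic kinesins depended on the number. For number 1, 11 of 12 were lower with REST shRNA, for number 2, 11 of 12 were higher, and for number 3, 5 were higher and 7 lower. The class median of 0.05 therefore rested on single arrays: leaving out REST shRNA array 2 gave -0.70, with 1 of 12 positive, leaving out control array 3 gave -0.63, and leaving out REST shRNA array 3 gave 0.95, with 11 of 12 positive. Leaving out both arrays of a number moved it less, to 0.34, -0.31 and 0.17 for numbers 1, 2 and 3. Transport minus mitotic median differences were 0.04 with all arrays, 0.76 when REST shRNA array 2 was dropped and -1.03 when it was REST shRNA array 3, and they were -0.36, 0.35 and -0.21 when both arrays of number 1, 2 or 3 were dropped. The contrast between the classes thus had no settled sign for the shRNA. Transport kinesins showed no shared step by number: their median for the arrays numbered 3 was 0.24 above the others, with 9 of 15 higher. The largest single values were 1.13 for Kif5a and 0.92 for Kif5c.

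**Figure D4:**
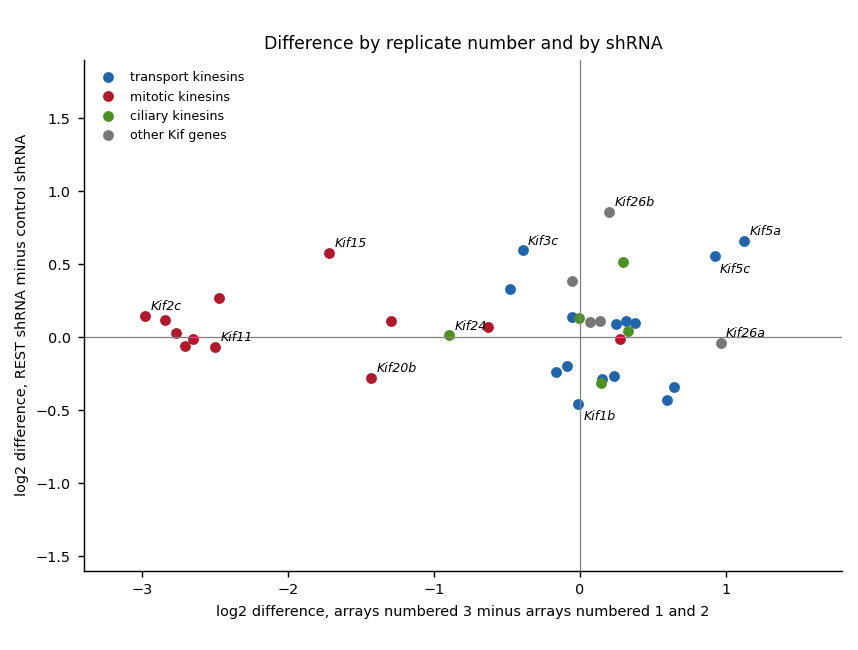
For each of the 37 Kif genes, the log2 difference of arrays numbered 3 from arrays numbered 1 and 2 (x axis) against the log2 difference of REST shRNA from control shRNA (y axis), coloured by class. Mitotic kinesins above background spread from -2.98 to -1.43 on the x axis and stay within -0.28 to 0.58 on the y axis, while transport kinesins stay between -0.48 and 1.13 on the x axis.

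The means of other lists of cell division genes were also low on both arrays numbered 3 and highest on REST shRNA array 2, though not every gene kept that order. The list of mitotic kinesin partners held 26 measured genes of the spindle, the kinetochore, the chromosomal passenger complex and cytokinesis. All 26 were lower for number 1, all 26 were higher for number 2, and 12 were higher for number 3, with a median shRNA difference of 0.06 and 0 at an unadjusted limma p under 0.05. The 3 with the smallest p were Cenpe, a kinetochore kinesin, at -0.67 ± 1.07 (SE), Mad2l1, a checkpoint protein, at 0.49 ± 0.90, and Aurka, a spindle pole kinase, at -0.33 ± 1.18. All 26 were lower on the arrays numbered 3, with a median of -2.65. The same held for all 18 measured proliferation markers, a list without kinesins, with a median of -1.78. Their mean, relative to each gene's mean over all arrays, was 0.46, 0.62 and -1.41 in control and -0.10, 1.72 and -1.29 in REST shRNA, against 0.52, 0.59 and -1.23 and 0.07, 1.45 and -1.41 for the mitotic kinesins. REST shRNA array 2, where these lists were highest, also had the lowest mean of astrocyte markers, at 8.76 against 10.16 to 10.51 on the other arrays. The mean of oligodendrocyte markers was lowest there too, at 8.09 against 8.46 to 9.66, though Olig1 and Olig2 of that list read highest there. The part of proliferation, of the Gapdh 3' minus 5' signal and of cell type makeup in the kinesin values was not tested.

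**Figure D5:**
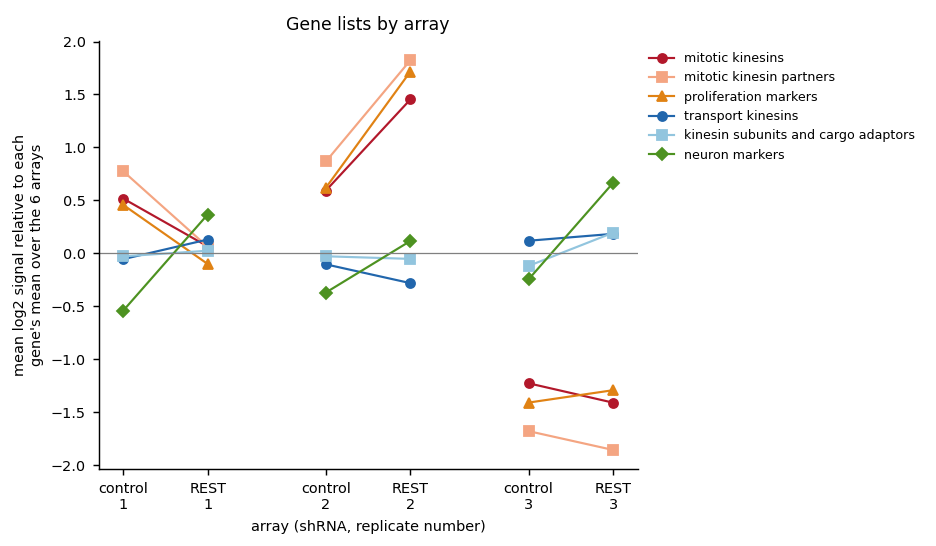
Mean log2 signal of 6 gene lists relative to each gene's mean over the 6 arrays (y axis) on each array (x axis), with lines joining control shRNA and REST shRNA arrays of the same replicate number. Mitotic kinesins, their partners and proliferation markers move together between -1.85 and 1.82, transport kinesins and cargo adaptors stay between -0.28 and 0.20, and neuron markers are higher with REST shRNA within each number.

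Kinesins need light chains, adaptors and the opposing motor dynein, and their sign count was near that of all genes. Of 26 measured kinesin subunits and cargo adaptors, 14 were positive, against 57.2% of all genes, with a median of 0.01. At an unadjusted p under 0.05, 2 of them were higher, against 1.78% of all genes. They were Clstn2, a calsyntenin of postsynaptic membranes, at 1.15 ± 0.32 (SE), and Mapk8ip2, a scaffold that links kinesin-1 to signalling kinases, at 0.80 ± 0.30, both with an adjusted p of 1 in limma. Clstn2 read 4.82, 4.63 and 5.37 in control and 6.62, 5.55 and 6.11 in REST shRNA. Mapk8ip2 read 9.02, 8.90 and 8.62 in control and 9.03, 9.77 and 10.13 in REST shRNA, so the groups of both genes were apart, that of Mapk8ip2 only just for number 1. Klc3, a kinesin light chain, differed by 0.47 ± 0.24. Of 23 measured subunits and regulators of dynein and dynactin, 13 were positive with a median of 0.03 and 0 had an unadjusted limma p under 0.05. The smallest p there belonged to Dynlt3, a dynein light chain, at -0.55 ± 0.24, to Pafah1b1, the dynein regulator known as Lis1, at -0.26 ± 0.19, and to Hook3, a dynein adaptor, at -0.34 ± 0.26.

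Of the kinesins of cilia and centrioles, Kif7 separated the groups. Kif7, a regulator of Hedgehog signalling at the tip of cilia, read 7.01, 6.96 and 7.10 in control and 6.67, 6.63 and 6.82 in REST shRNA. Every REST shRNA array was lower, by 0.35, 0.32 and 0.28 for numbers 1, 2 and 3, with a mean difference of -0.32 (95% CI -0.65 to 0.02; limma, unadjusted p = 0.0592, adjusted p = 1). Kif9, a motor of motile cilia, read 4.43, 4.31 and 4.25 in control and 5.29, 3.92 and 5.32 in REST shRNA. It was thus high on REST shRNA arrays 1 and 3 and low on array 2, with a mean difference of 0.51 ± 0.38 (SE). Without REST shRNA array 2 the difference was 0.98 (limma, unadjusted p = 0.000566, adjusted p = 0.451), and without REST shRNA array 1 or 3 it was 0.29 or 0.27. Kif24, which takes centriolar microtubules apart, differed by 0.01 ± 0.37 between the groups. Its 3 probe sets were lower on the arrays numbered 3, the brightest by 0.89, the direction seen in the mitotic kinesins. Kif27 differed by 0.04 ± 0.28, and Kif6 had a mean below the background reference.

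Among the other Kif genes, Kif26b had the smallest p of all 37 kinesins. Kif26b, a family member without motor activity that acts in cell adhesion and signalling, read 3.97, 4.18 and 3.72 in control and 4.70, 4.42 and 5.32 in REST shRNA. All REST shRNA arrays lay above all control arrays, and the difference was 0.86 (95% CI 0.23 to 1.49; limma, unadjusted p = 0.0148, adjusted p = 1), a 1.81-fold higher mean. The signal was dim, with a control mean of 3.95 against the reference of 3.24, and leaving out single arrays gave unadjusted limma p-values of 0.00480 to 0.0520. Kif2a, a microtubule depolymerase that limits axon branching in neurons, read 9.04, 9.49 and 9.38 in control and 9.52, 9.99 and 9.54 in REST shRNA. These groups were apart by a narrow margin, with a difference of 0.38 ± 0.20 (SE), and 1 of its 5 probe sets gave -0.07. Kif26a, the relative of Kif26b, differed by -0.04 ± 0.43, Kif12 by 0.11 ± 0.24, and Kif28 was below the background reference on every array.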

How the data were processed

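RNA from 6 samples was measured on 1-colour arrays, and the deposited table, used as the authors left it, gives log2 signals, a scale inferred from values between 1.00 and 14.2. How background was corrected and arrays were normalized is not given in the sources used here. After sorting, the arrays lay within 0.112 of their average, which makes any difference one relative to the array's other genes. Per the labels' protocols, Trizol was used for extraction and biotin for labelling.

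Names came from the platform annotation, in which 34958 of 45101 had 1 gene, with symbols checked through RefSeq. Of 99 kinesin probe sets with 1 gene, the brightest per gene was used, and 1 that also names another gene was left out. Groups came from the titles. All 18194 genes were fitted with limma 3.58.1 (R 4.3.3), with group as the sole term, two-sided, with Benjamini-Hochberg adjustment and a threshold of 0.05. It had 4 residual and 2.7 prior degrees of freedom. The simulated data on which it was tested had independent noise, without a deviation shared by arrays of the same number. The number of arrays limits the precision. Class medians carry no test. Arrays sharing number 1, 2 or 3 deviated together from their group means (r over genes 0.108, 0.365 and 0.504), though for control array 1 the value with REST shRNA array 2 was higher (0.268). On this correlation, and the titles, the numbers were used as pairing in the differences per number and in the blocked fit. The main fit left them out, so its p-values, SE and intervals ignore that pairing.

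The members, classes and lists were chosen with earlier results of these data known. Of 40 kinesin symbols listed, 37 were measured. Of 200 list entries, 191 matched. Values in every array are given for Kif1a, Kif5c, Kif11, and the genes with the smallest p in each class (6 transport, 6 mitotic, 2 ciliary, 2 other), and 3 genes are named per partner list. Values of further kinesins and the comparison by replicate number were chosen after the values were seen. The alternatives were the replicate block, scalings, dim gene filters, variance models, array weights, an unequal-variance test, other choices of probe set and leaving out arrays.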

Additional observations from a re-analysis of the deposited data

How the results depend on the processing

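None of the 37 kinesin genes was called in any of 21 alternative settings (smallest adjusted p = 0.451 in limma), and 11 kept the sign of their difference in all of those in which they were tested: Kif1b, Kif1c, Kif2a, Kif3a, Kif3c, Kif5a, Kif5c, Kif7, Kif9, Kif26b and Kif28. The settings did not read every probe set alone, and 2 dimmer probe sets of Kif1c and 1 of Kif2a had the opposite sign. Over all genes the count of calls was 0 throughout limma, the replicate block included, and 2 with the unequal-variance test, neither a kinesin. The replicate block changed no call. With it, Kif1b, Kif3c and Kif26b had unadjusted limma p-values of 0.0405, 0.0246 and 0.0258. The median difference of the transport kinesins, 0.09, was -0.069 with the mean over all probe sets and -0.19 when x_at and s_at probe sets were dropped. It ran from -0.11 to 0.062 with single arrays left out. The mitotic median, 0.05, was -0.71 with array weights, ran from -0.70 to 0.95 with single arrays left out, and from -0.31 to 0.34 with both arrays of a number left out. Transport minus mitotic, 0.04, ran from -1.03 to 0.76 in the same way. The cause of these moves was not tested. Dropping both arrays of a number took Kif1b past an unadjusted p of 0.05 for each number, and Kif3c and Kif26b for numbers 1 and 3. Signals near the background reference, as for Kif6, Kif14, Kif18a, Kif2b and Kif28, understate differences.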
